A study of Homo sapiens with 10 samples.

Results

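The loci of 5 genes that encode negative regulators and partners of NF-κB signalling were examined by ChIP-seq peak lists for FOS, JUN, JUNB, NFKB1 and STAT3 in MCF-10A-ER-Src cells. This is a line of non-cancerous human breast epithelial cells in which v-Src, an oncogenic tyrosine kinase, is joined to a tamoxifen-responsive part of the estrogen receptor, and adding the drug switches the kinase on. Each protein had 1 library from non-transformed cells, which received ethanol, and 1 from transformed cells, which received 1 μM 4-hydroxytamoxifen for 12 h. All 10 libraries came from the same line, and both states carry the fusion gene. Names written in the list headers put the ethanol cultures at 36 h and the tamoxifen cultures at 12 h, so the states differ in time as well as in treatment, and the contribution of each cannot be told apart. With 1 library per group there is no replicate error and no test, and each difference below is between 2 libraries.

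Members were all peaks with a summit in 5 windows of the hg19 genome: chr14:35820000-35920000 for NFKBIA, chr6:138130000-138260000 for TNFAIP3, chr3:101520000-101610000 for NFKBIZ, chr11:102150000-102250000 for BIRC3 and chr5:150390000-150500000 for TNIP1. These windows cover 530.0 kb and held 760 of the 879550 peaks listed on chromosomes 1 to 22 and X. Summits with 150 bp on each side were merged across the 10 lists into sites, which gave 172 sites in the windows out of 248897 in all. The windows were drawn by position and were not limited to the gene itself: in RefSeq, BIRC2 lies next to BIRC3, TNIP1 lies between GPX3 and ANXA6, and NFKBIZ lies next to NXPE3. No gene annotation of hg19 was used here, so a site is assigned to a window and not to a gene or to an exon, intron or promoter.

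NF-κB is a family of dimeric transcription factors held in the cytoplasm by IκB proteins and released when these are degraded after an inflammatory signal. Once in the nucleus, NF-κB switches on inflammatory genes and also genes whose products shut the pathway down, which makes the response transient. NFKBIA encodes IκBα, the inhibitor that is rebuilt after each round of activation and carries NF-κB out of the nucleus. NFKBIZ encodes IκBζ, an atypical IκB that works in the nucleus with NFKB1 homodimers and modulates their target genes. TNFAIP3 encodes A20, a ubiquitin-editing enzyme that dampens signalling upstream of the IκB kinase, and TNIP1 encodes ABIN1, an A20-binding protein. BIRC3 encodes cIAP2, a ubiquitin ligase of the TNF receptor complex that restrains cell death. NFKB1 is the p50 subunit of NF-κB, FOS, JUN and JUNB are subunits of AP-1, and STAT3 is the factor that acts downstream of IL-6. The antibody used for STAT3 has the catalogue number that the study lists for the phosphorylated protein.

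Promoter sequences are shown first because these genes are textbook NF-κB targets and the sequence that NF-κB recognises can be looked for in them. RefSeq promoter windows of GRCh38.p14 matched all 5 symbols, with 1 window each for NFKBIA, TNFAIP3 and BIRC3 and 2 each for NFKBIZ and TNIP1. The 250 bases before the start are written 5′ to 3′ on the gene's own strand, with matches to the NF-κB consensus on either strand in capitals.
NFKBIA, chr14:35404750-35404999, minus strand: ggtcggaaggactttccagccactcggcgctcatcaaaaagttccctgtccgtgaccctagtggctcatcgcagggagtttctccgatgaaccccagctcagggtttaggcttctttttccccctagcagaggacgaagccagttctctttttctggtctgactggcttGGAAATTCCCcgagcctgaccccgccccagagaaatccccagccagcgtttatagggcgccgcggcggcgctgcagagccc
TNFAIP3, chr6:137867009-137867258, plus strand: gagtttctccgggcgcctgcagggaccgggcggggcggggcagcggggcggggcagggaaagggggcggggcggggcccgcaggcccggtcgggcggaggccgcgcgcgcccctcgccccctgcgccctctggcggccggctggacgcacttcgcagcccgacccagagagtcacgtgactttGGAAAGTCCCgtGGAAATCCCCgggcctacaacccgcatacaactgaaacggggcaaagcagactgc
NFKBIZ, chr3:101827740-101827989, plus strand: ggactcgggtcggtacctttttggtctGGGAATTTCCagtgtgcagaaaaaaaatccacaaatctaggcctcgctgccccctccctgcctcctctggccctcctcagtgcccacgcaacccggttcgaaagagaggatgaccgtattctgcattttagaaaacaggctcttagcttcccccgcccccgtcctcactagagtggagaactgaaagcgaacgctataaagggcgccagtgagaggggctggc
BIRC3, chr11:102317234-102317483, plus strand: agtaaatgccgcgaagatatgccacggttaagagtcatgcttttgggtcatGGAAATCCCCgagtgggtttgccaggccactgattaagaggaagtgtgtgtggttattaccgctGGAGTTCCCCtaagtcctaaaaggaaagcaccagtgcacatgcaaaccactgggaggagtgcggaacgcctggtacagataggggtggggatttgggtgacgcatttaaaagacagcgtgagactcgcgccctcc
TNIP1, chr5:151081035-151081284, minus strand: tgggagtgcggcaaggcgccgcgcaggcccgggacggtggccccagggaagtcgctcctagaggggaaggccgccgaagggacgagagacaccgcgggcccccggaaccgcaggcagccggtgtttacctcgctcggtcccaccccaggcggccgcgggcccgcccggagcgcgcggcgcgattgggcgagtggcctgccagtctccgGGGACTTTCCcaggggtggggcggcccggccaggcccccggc
A match to the NF-κB consensus was present in 6 of the 7 windows, beside 9.96% of 35116 RefSeq promoter windows of the same length. Each of the 5 genes had a window with a match. The genes were chosen as known NF-κB targets, so this comparison is a description and not a test. TNFAIP3 had 2 matches, GGGACTTTCC and GGGGATTTCC read on the minus strand, which lie from 67 to 46 bases before the start with a gap of a pair of bases between them. BIRC3 also had 2 matches, GGGGATTTCC and GGGGAACTCC on the strand opposite to the gene, the second of which begins 135 bases before the start. NFKBIA had GGGAATTTCC from 81 to 72 bases before the start, TNIP1 had GGGACTTTCC from 42 to 33 bases before it, and the NFKBIZ window shown had GGGAATTTCC from 223 to 214 bases before it. The other NFKBIZ window held 1 stretch that matches on both strands, and the other TNIP1 window held none. The AP-1 motif TGANTCA was in none of the 7 windows, beside 6.57% of all windows, and the STAT motif TTCNNNGAA was also in none, beside 6.57%. These matches are letters and not measured binding sites, and the windows are in another build than the peaks, so no peak was placed on them.

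The loci held more peaks per length than the whole lists, in each of the 10 libraries. NFKB1 stood apart most in non-transformed cells, where 29 of its 13252 peaks lay in the loci, which is 5.47 peaks per 100 kb beside 0.491 over the effective genome size, a ratio of 11.2. In transformed cells 91 of 73822 NFKB1 peaks lay in the loci, or 17.2 per 100 kb beside 2.73, a ratio of 6.28. The same ratio was 5.12 and 5.58 for STAT3, 4.82 and 4.48 for JUN, 3.36 and 3.68 for FOS, and 3.11 and 3.83 for JUNB, in non-transformed and transformed cells. NFKB1 therefore had the highest density relative to its own list in both states, with the gap to the other factors wider before transformation. The NFKB1 list of non-transformed cells was also the shortest and came from the fewest filtered reads, 4837474 beside 9674390 after transformation. The part of list length and depth in these ratios was not tested.

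Each factor had more peaks in the loci after transformation: FOS had 79 and 119, JUN 77 and 112, JUNB 46 and 76, NFKB1 29 and 91, and STAT3 43 and 88 in non-transformed and transformed cells. The NFKB1 number was 3.14 times as high in transformed cells, beside 5.57 times over the whole list, while the NFKB1 library of transformed cells had 2.0 times the reads. STAT3 was 2.05 times as high in the loci and 1.88 times over its list although the library of transformed cells was the shallower, with 0.821 times the reads. For FOS, JUN and JUNB the number in the loci was 1.51, 1.46 and 1.65 times as high, beside 1.38, 1.56 and 1.34 times over the lists, with read ratios of 1.19, 1.16 and 1.72. The part of depth in these numbers was not tested.

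**Figure D1:**
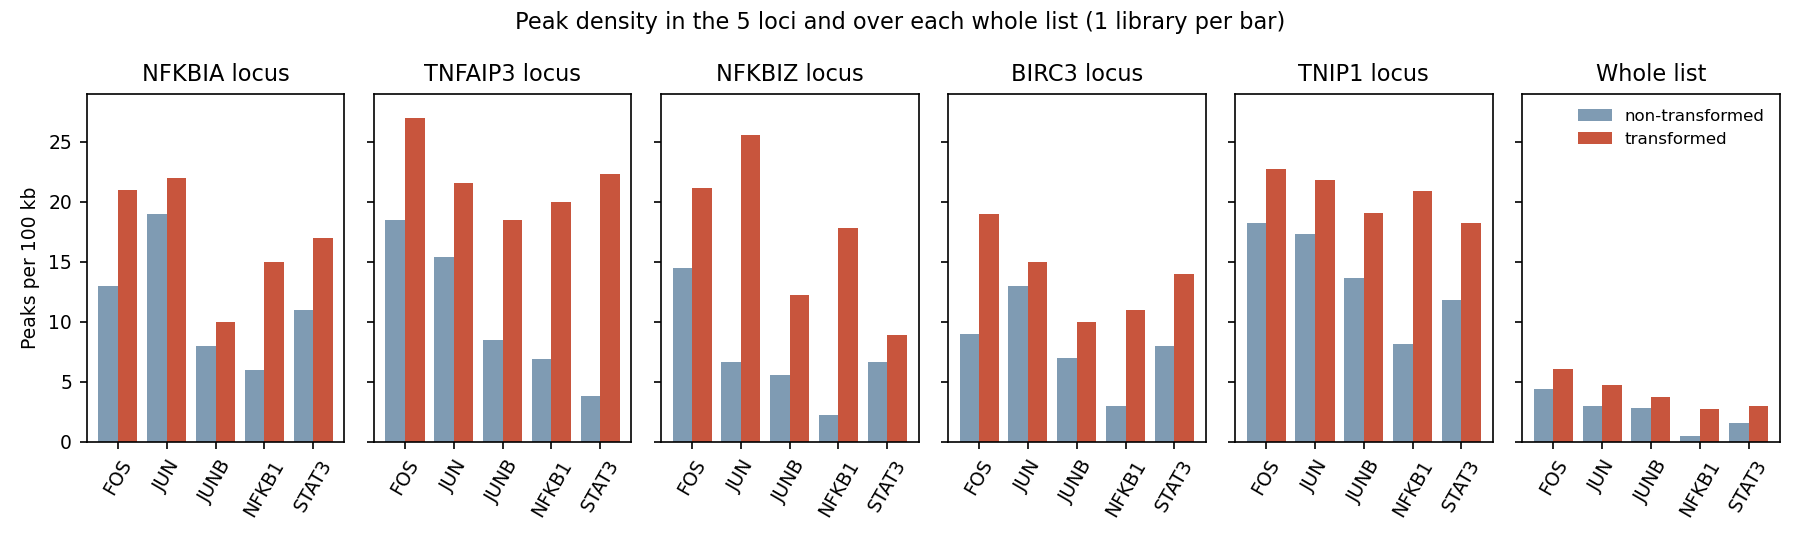
Peaks per 100 kb (vertical axis) of each factor in each of the 5 loci and over the whole list, for non-transformed (blue) and transformed (red) cells, with 1 library per bar. Every locus has a higher bar in transformed cells for every factor, and every bar of the loci is higher than the matching bar of the whole list.

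NFKBIA, the gene of the inhibitor IκBα, had its highest NFKB1 signal at 1 site and its highest AP-1 and STAT3 signals at others. At chr14:35872885-35873265, the strongest NFKB1 site of this locus in both states, the pileup was 56 reads before and 52 reads after transformation, or 11.6 and 5.38 reads per 1000000 filtered reads (RPM). The ratio of 0.464 had a 95% interval of 0.312 to 0.690 from counting error. This site was chosen for its high NFKB1 value, which is part of the ratio, and the interval does not cover that choice. The same holds for the strongest NFKB1 site of each other locus below. AP-1 was weak here: FOS had 14 and 12 reads, JUN had 12 in each state, and no JUNB peak was listed. STAT3 had 9 and 11 reads at this site. By contrast, the site at chr14:35843566-35843904 had peaks in all 10 libraries, with the 5 summits of transformed cells within 24 bp, 101 and 66 reads of FOS, 33 and 52 of JUNB, 50 and 60 of STAT3 and 20 and 32 of NFKB1. The FOS value of this site was lower after transformation, at 2.99 beside 5.42 RPM, a ratio of 0.551 (0.398 to 0.759).

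Another NFKBIA site, chr14:35834697-35835070, had the largest JUN ratio and the largest JUNB ratio of all kept sites of the 5 loci. JUN had 7 reads before and 39 after transformation, a ratio of 4.79 (2.12 to 12.7) after scaling to depth. JUNB had 8 and 49 reads, a ratio of 3.57 (1.68 to 8.73). STAT3 went from 11 to 51 reads, a ratio of 5.65 (2.91 to 12.0), and FOS had 44 and 80, a ratio of 1.53 (1.05 to 2.27). NFKB1, with no peak before, had 23 reads after. All factors at this site were thus higher after transformation, whereas the strongest NFKB1 site of the same locus was lower.

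At NFKBIZ, the gene of the nuclear IκBζ, the strongest peak of each AP-1 protein was lower than in the other 4 loci, in both states. The strongest NFKB1 site of non-transformed cells, chr3:101568050-101568384, had 29 NFKB1 reads before and 33 after, or 6.00 and 3.41 RPM, a ratio of 0.569 (0.335 to 0.971). STAT3 at this site had 52 and 21 reads, or 4.76 and 2.34 RPM, a ratio of 0.492 (0.282 to 0.831), which was the smallest STAT3 ratio of any kept site of the loci. FOS was listed in non-transformed cells only, with 11 reads, JUN in transformed cells only, with 12 reads, and JUNB in neither. The strongest NFKB1 site of transformed cells was another one, chr3:101546082-101546853, with 16 and 39 NFKB1 reads, a ratio of 1.22 (0.666 to 2.34) that counting error covers. At chr3:101535646-101536011, which held the highest FOS and JUNB values of this locus in both states, FOS had 38 and 48 reads and JUNB 11 and 25. JUN had 7 and 23 reads there, its highest value in transformed cells, whereas its highest peak of the locus before transformation, with 15 reads, lay elsewhere.

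TNFAIP3, the gene of A20, held 211 of the 760 peaks in the longest window, or 162 per 100 kb over the 10 lists beside 172 for TNIP1, and 17 of the 46 sites with all 5 factors in transformed cells. Its strongest NFKB1 site in both states, chr6:138194484-138194815, had 67 and 89 NFKB1 reads, or 13.8 and 9.20 RPM, a ratio of 0.664 (0.478 to 0.926). Fold enrichment, which MACS writes as pileup plus 1 over local background plus 1, was nearly equal, with a ratio of 0.992. STAT3 was higher after transformation there, with 18 and 48 reads and a ratio of 3.25 (1.86 to 5.94). FOS had 29 and 46 reads, JUN 20 and 34 and JUNB 11 and 23 at this site, with ratios of 1.34, 1.46 and 1.22 whose intervals all held 1. A neighbouring NFKB1 site, chr6:138187879-138188550, which was picked out after its values were seen, had 57 and 52 reads, or 11.8 and 5.38 RPM.

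Towards the low end of the TNFAIP3 locus, 2 further sites had all 5 factors in both states and at least 2-fold more NFKB1 after transformation. At chr6:138132552-138132876 NFKB1 had 20 and 88 reads, or 4.13 and 9.10 RPM, a ratio of 2.20 (1.34 to 3.78). At chr6:138134467-138134844 it had 10 and 50 reads, a ratio of 2.50 (1.25 to 5.53). This second site also held the highest JUN value of the 5 loci, 69 reads in transformed cells, which only 0.357% of the peaks of that list equalled or passed. In transformed cells, NFKB1 at chr6:138132552-138132876 and at the strongest NFKB1 site of the locus was thus nearly the same, at 9.10 and 9.20 RPM, beside 4.13 and 13.8 before. FOS had its largest and its smallest ratio of the 5 loci in this locus too: 7 and 26 reads at chr6:138216121-138216457, a ratio of 3.13 (1.32 to 8.55), and 40 and 15 reads at chr6:138254784-138255490, a ratio of 0.316 (0.162 to 0.585).

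TNIP1, the gene of the A20 partner ABIN1, held the highest NFKB1 peak of the loci in transformed cells. At chr5:150473059-150473462 NFKB1 had 53 and 110 reads, or 11.0 and 11.4 RPM, a ratio of 1.04 (0.741 to 1.47). Of the 73822 NFKB1 peaks of transformed cells, 10 were at least as high as this one, which is 0.0135% of the list. Peaks of all 10 libraries met at this site, with FOS at 63 and 76 reads, JUN at 45 and 49, JUNB at 23 and 41 and STAT3 at 27 and 46. The AP-1 proteins had ratios of 1.02, 0.935 and 1.04, close to 1, and STAT3 had a ratio of 2.08 (1.26 to 3.47).

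Sites were packed closely around this peak. Between chr5:150459309 and chr5:150474447, a stretch of 15.1 kb bounded after the values were seen, there were 15 sites, of which 8 had all 5 factors in transformed cells and 3 in non-transformed cells. NFKB1 had a peak at 8 of these sites before transformation and at 12 after. The sites did not move together. At chr5:150473612-150474012 NFKB1 had 7 and 43 reads, a ratio of 3.07 (1.37 to 8.09), the largest NFKB1 ratio at the kept sites of the loci, whereas at chr5:150460501-150461134 it had 31 and 28 reads, a ratio of 0.452 (0.261 to 0.778), the smallest. The latter site had no FOS and no STAT3 peak in either state. At chr5:150462922-150463331 NFKB1 was nearly the same after scaling, at 5.79 and 6.41 RPM, and STAT3 had 13 and 42 reads, a ratio of 3.94 (2.07 to 7.99).

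BIRC3, the gene of cIAP2, had less NFKB1 per depth and more STAT3 after transformation at its strongest NFKB1 site. At chr11:102187831-102188262 NFKB1 had 63 and 82 reads, or 13.0 and 8.48 RPM, a ratio of 0.651 (0.463 to 0.919). On the fold enrichment scale, which does not divide out depth in full, the NFKB1 ratio at this site was 1.04, so its direction turns with the scale. STAT3 at the same site had 24 and 72 reads, or 2.20 and 8.03 RPM, a ratio of 3.66 (2.28 to 6.07), and the transformed-cell value was the highest of STAT3 in the 5 loci. FOS had 29 and 59 reads there, a ratio of 1.72 (1.08 to 2.78). Towards the high end of the locus a pair of sites had the largest STAT3 ratios in the loci. At chr11:102214593-102214990 STAT3 had 7 and 49 reads, a ratio of 8.53 (3.84 to 22.3), and at chr11:102216461-102216977 it had 7 and 43 reads, a ratio of 7.49 (3.34 to 19.7). NFKB1 at the latter site had 7 and 42 reads, a ratio of 3.0 (1.33 to 7.92), and the AP-1 proteins were listed there in transformed cells only.

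**Figure D2:**
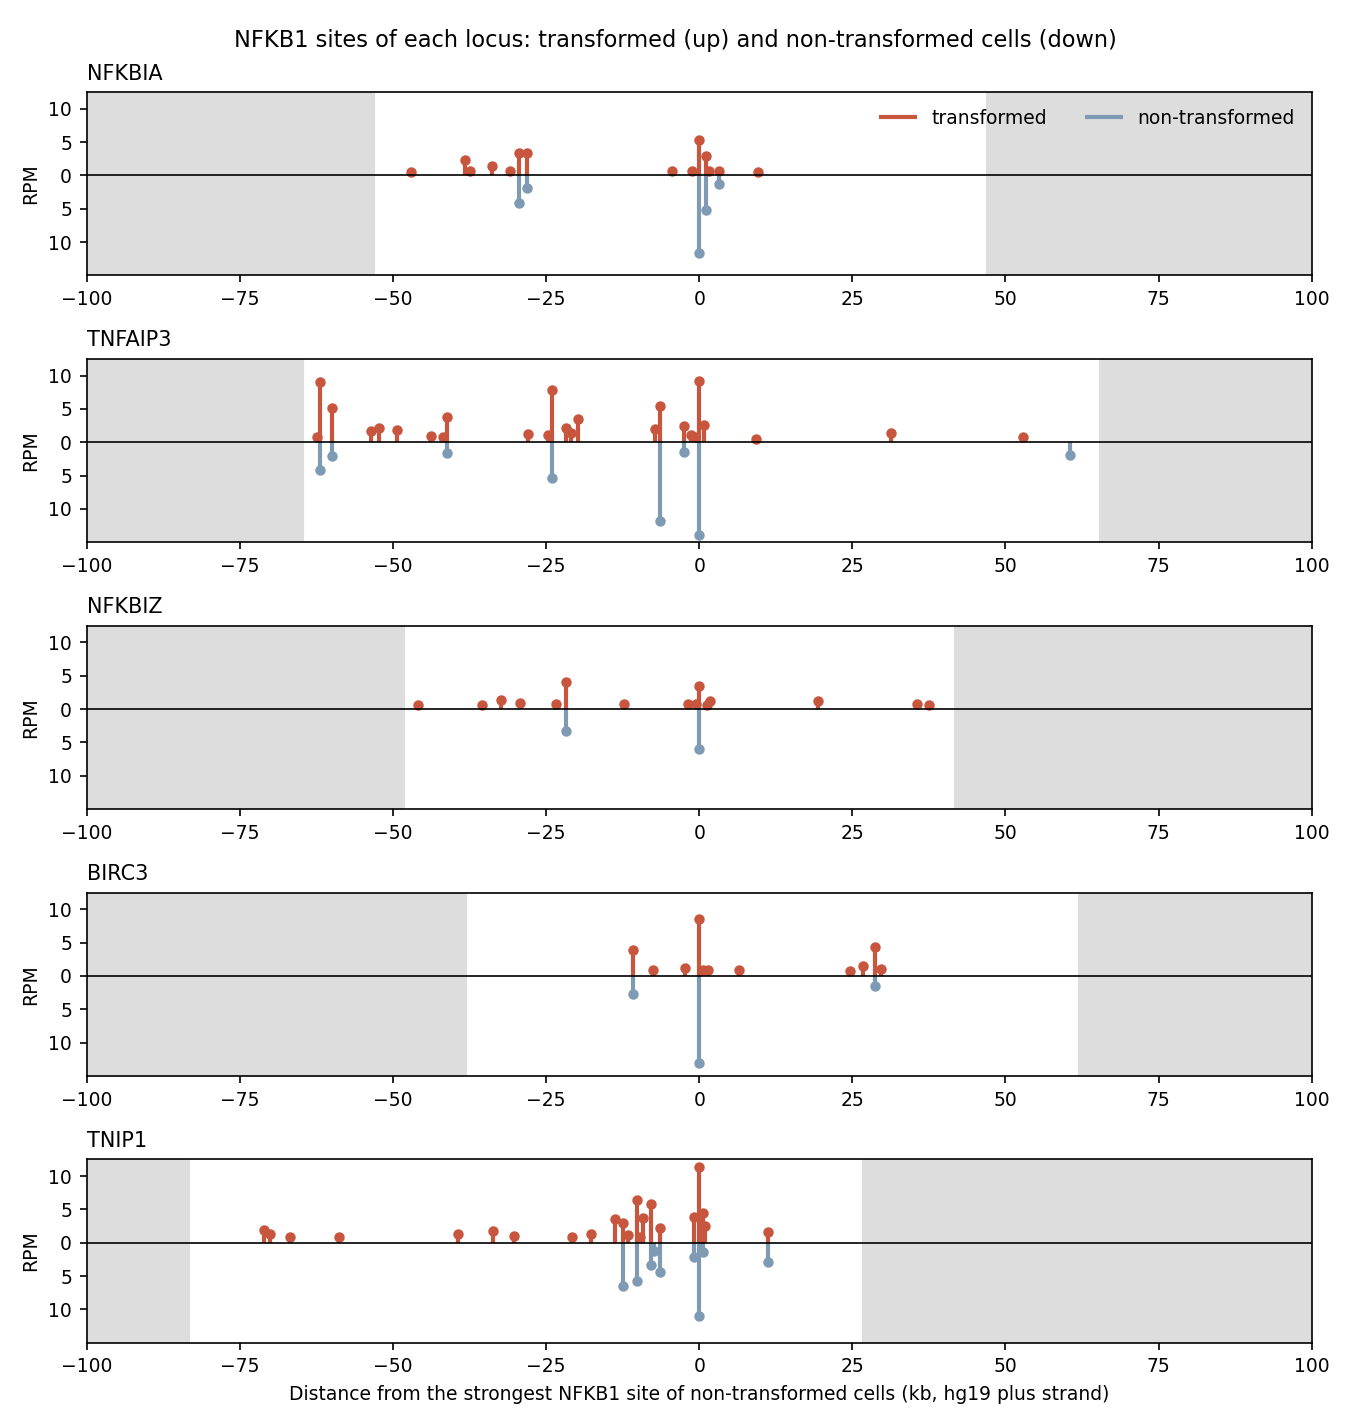
NFKB1 signal in RPM (vertical axis) at each site with an NFKB1 peak, by distance in kb from the strongest NFKB1 site of non-transformed cells (horizontal axis), drawn upward for transformed and downward for non-transformed cells, with grey outside each locus. The strongest downward line lies at 0 in each locus, between 6.00 and 13.8 RPM, and is longer than the upward line there except at TNIP1, while many upward lines have no partner below. The site at 0 was chosen by its NFKB1 values, which are the values compared.

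Among all peaks of its list, the strongest NFKB1 peak of a locus ranked high in both states. In non-transformed cells 66 peaks of the genome were at least as high as that of TNFAIP3, 82 as that of BIRC3, 127 as that of NFKBIA, 149 as that of TNIP1 and 767 as that of NFKBIZ. In transformed cells the numbers were 75, 130, 1059, 10 and 2311 in the same order. Since the lists differ in length and depth, these numbers are read within a state and not between states. NFKBIZ had the lowest rank of the 5 loci in both. FOS, by comparison, had its strongest peak of the loci at NFKBIA in non-transformed cells, with 1.44% of the list at least as high, and at TNFAIP3 in transformed cells, with 0.953%. JUN ranked higher, with 0.640% at TNIP1 in non-transformed and 0.357% at TNFAIP3 in transformed cells. The matching NFKB1 shares were 0.498% at TNFAIP3 and 0.014% at TNIP1, but 0.958% at NFKBIA in non-transformed cells. A high rank was thus not particular to NFKB1.

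**Figure D3:**
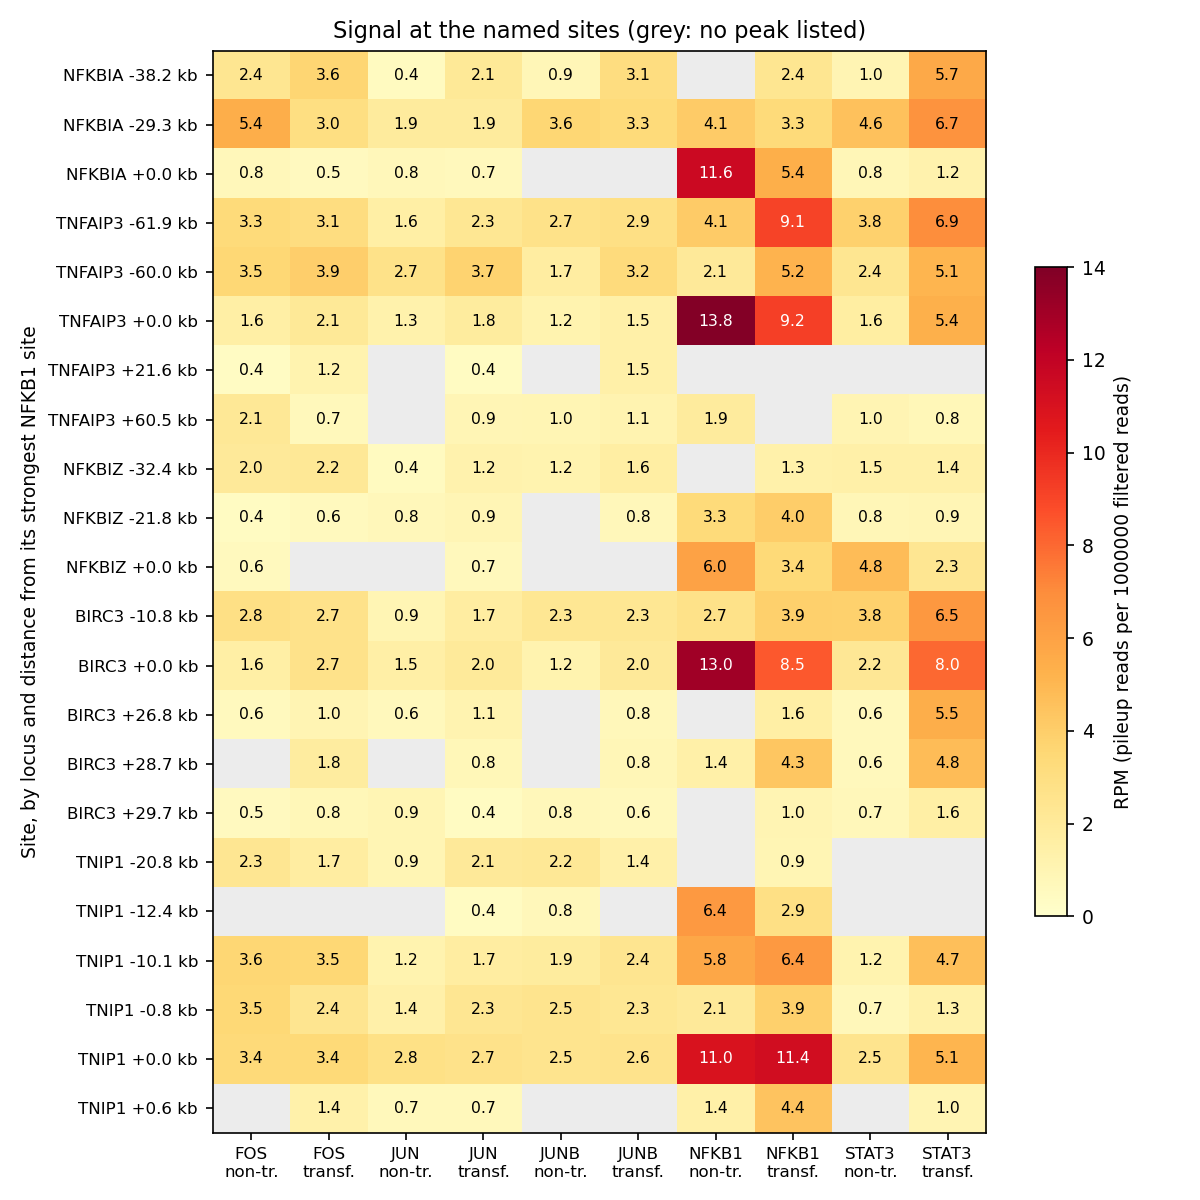
RPM at the 22 named sites (rows, by locus and distance in kb from the strongest NFKB1 site of non-transformed cells) in the 10 libraries (columns), with grey where no peak was listed. NFKB1 in non-transformed cells has its 4 darkest cells at the 0 kb rows of NFKBIA, TNFAIP3, BIRC3 and TNIP1, and STAT3 is darker in transformed than in non-transformed cells at every row of NFKBIA and BIRC3.

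In the loci, sites with all 5 factors were more frequent than over the genome. All 5 factors had a peak in transformed cells at 46 of the 172 sites, or 26.7%, beside 14.8% of all sites. In non-transformed cells this was so at 10 sites, or 5.81%, beside 2.41% of all sites, and each of these 10 sites also had all 5 factors after transformation, which 2.23% of all sites had in both states. The 10 sites were 4 in TNFAIP3, 3 in TNIP1, 2 in BIRC3 and 1 in NFKBIA, and NFKBIZ had none. Summits of the 5 factors spanned a median of 62 bp at the 46 sites, from 19 to 447 bp.

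At 4 sites, or 2.33%, all 5 factors were listed in transformed cells and none before, beside 0.437% of all sites. The strongest was chr5:150459309-150459690 in the TNIP1 locus, with 74 reads of FOS, 32 of JUN, 39 of JUNB, 35 of NFKB1 and 57 of STAT3. The others were chr5:150474102-150474447 in TNIP1, chr6:138225695-138226069 in TNFAIP3 and chr3:101566159-101566498 in NFKBIZ, where STAT3 had 11, 41 and 24 reads. All 4 were named after their values were seen. No factor was listed in transformed cells at 15 sites, or 8.72%, beside 15.0% of all sites, and no factor in non-transformed cells at 57, or 33.1%, beside 34.6%. A peak in 1 library only was found at 48 sites, or 27.9%, beside 38.7% of all sites, of which 35 were in transformed and 13 in non-transformed cells.

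Next, sites of each factor were sorted into those kept (a peak in both states), gained (a peak in transformed cells only) and lost (a peak in non-transformed cells only). NFKB1 had 25 kept, 62 gained and 2 lost sites in the loci. The gained sites were 71.3% of its sites in transformed cells, a smaller share than the 83.5% over the genome, and the lost ones were 7.41% of its sites before, beside 9.97%. A peak missing from the shallower library may lie under its threshold. Of the 62 gained sites, 24 had a value at or above 1.24 RPM, the lowest NFKB1 value listed in the loci before transformation, which is 27.6% of the 87 sites of transformed cells beside 21.5% over the genome. STAT3 had 36 kept, 47 gained and 7 lost sites, and its gained share of 56.6% compared with 61.1% over the genome and its lost share of 16.3% with 28.1%. Of the gained STAT3 sites, 23 lay in the TNFAIP3 locus, the longest window, where STAT3 had just 5 kept sites. They were 82.1% of the STAT3 sites of transformed cells in this locus, beside 61.1% over the genome. Most were weak, with a median of 0.892 RPM beside 5.35 at the 5 kept sites.

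For FOS and JUN, kept sites outnumbered gained ones, and for JUNB the numbers were nearly equal. FOS had 67 kept, 44 gained and 9 lost sites, with 39.6% gained beside 38.7% over the genome and 11.8% lost beside 16.3%. JUN had 63, 42 and 8, with 40.0% gained beside 48.9% and 11.3% lost beside 20.4%. JUNB had 38, 37 and 8, with 49.3% gained beside 44.3% and 17.4% lost beside 25.1%. Under a stricter q-value limit gained sites outnumbered kept ones for JUN, at 33 and 18, and for JUNB, at 26 and 18. With these windows the share lost was lower in the loci than over the genome for all 5 factors, for NFKB1 from 2 of 27 sites. With windows of 50 bp JUN lost 19 of 76 sites, beside 24.8% over the genome, and NFKB1 lost 4 of 29, beside 14.1%, so for these 2 factors the difference rests on the window. With 150 bp on each side the share gained was lower for NFKB1, STAT3 and JUN and slightly higher for FOS and JUNB. Of the 5 loci, NFKBIZ held the largest share of gained sites for NFKB1, at 13 of 15, and for JUN, at 15 of 21. The NFKB1 share of 86.7% was near the 83.5% over the genome, and 2 of these gained NFKB1 sites were at or above 1.24 RPM. The JUN share was 71.4% beside 48.9%.

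**Figure D4:**
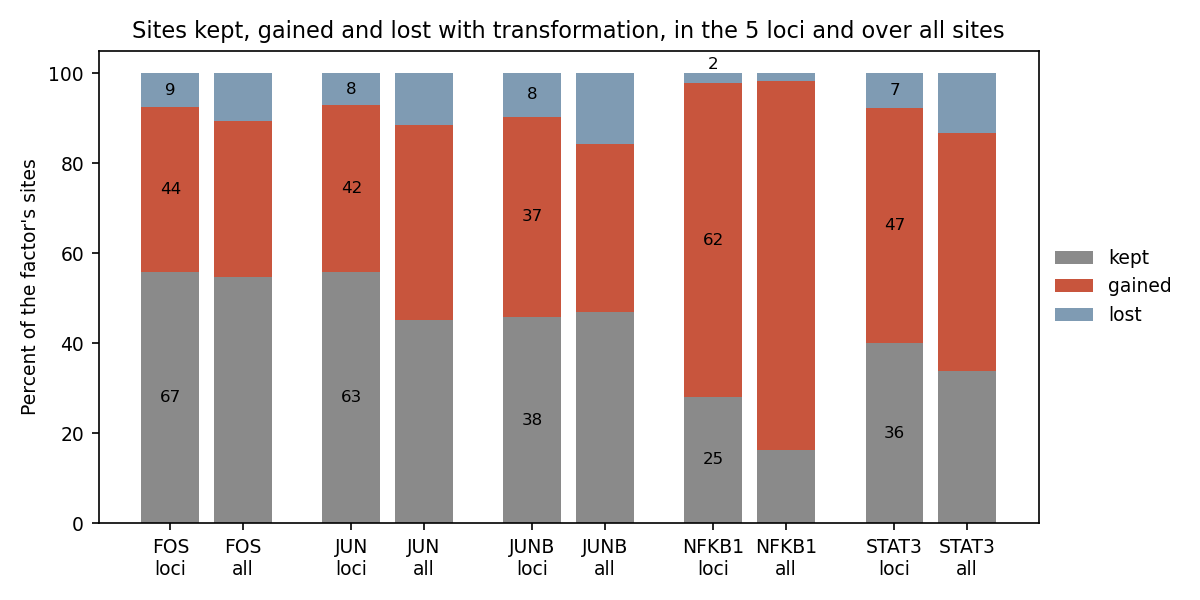
Percent of each factor's sites (vertical axis) that were kept (grey), gained (red) or lost (blue) with transformation, in the 5 loci and over all sites, with the numbers of sites in the loci printed on the bars. NFKB1 has the largest gained part, 62 sites in the loci, and the largest kept part belongs to FOS and JUN, with 67 and 63 sites.

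At kept sites the height of the peak was compared between states. STAT3 was higher in transformed cells at 30 of 36 sites, near the share over the genome, 25010 of 30047. The median ratio was 1.86 beside 1.71 over all kept STAT3 sites. At 17 sites, or 47.2%, STAT3 was at least 2-fold higher, beside 39.1% over the genome, and at 1 site, the NFKBIZ site described above, it was at least 2-fold lower, beside 0.978%. The interval of the STAT3 ratio lay above 1 at 18 sites, below 1 at 1 and held 1 at 17. Such intervals were not counted over the genome, so these counts have no genome share beside them. By locus the median STAT3 ratio was highest in BIRC3, at 3.40 over 7 sites, then 2.16 in TNFAIP3 over 5, 1.90 in TNIP1 over 11, 1.74 in NFKBIA over 9 and 1.04 in NFKBIZ over 4. These medians rest on few sites and the loci were not tested against each other.

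NFKB1 at kept sites was split, in the loci as over the genome. Its value was higher in transformed cells at 14 of 25 sites and lower at 11, beside 6398 higher of 11725 over the genome. The lowest NFKB1 value listed in the loci was 1.24 RPM in non-transformed and 0.517 in transformed cells. A rise from under 1.24 RPM therefore counted as gained, whereas a fall to under it could stay kept. The split thus depends on these limits as well. The median ratio was 1.11 beside 1.03 over all kept NFKB1 sites. At least 2-fold higher were 5 sites, or 20.0%, beside 9.26% over the genome, and at least 2-fold lower were 3 sites, or 12.0%, beside 5.92%. These counts depended on the scale. On the fold enrichment that MACS writes, 11 sites, or 44.0%, were at least 2-fold higher, beside 33.5% over the genome. At least 2-fold lower were 0, beside 0.384%. Fold enrichment adds 1 to the pileup and to the local background, so it does not divide out depth in full. The NFKB1 library of transformed cells had 2.0 times the reads, and the part of depth in these counts was not tested. The interval of the RPM ratio lay above 1 at 5 sites, below 1 at 7 and held 1 at 13, and these counts, too, have no genome share. The median ratio was 0.583 in NFKBIA over 5 sites, 0.833 in NFKBIZ over 2, 1.07 in TNIP1 over 8, 1.46 in BIRC3 over 3 and 1.64 in TNFAIP3 over 7.

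The direction of NFKB1 depended on the scale at some sites. On the fold enrichment scale the median log2 ratio of NFKB1 was 0.78 in place of 0.15, and 0.72 over all kept sites in place of 0.04. The ratio of fold enrichment was 0.760 at the strongest site of NFKBIA, 0.918 at NFKBIZ, 0.992 at TNFAIP3, 1.04 at BIRC3 and 1.62 at TNIP1. On this scale NFKB1 at the strongest site was thus lower at NFKBIA, nearly equal at NFKBIZ, TNFAIP3 and BIRC3 and higher at TNIP1. Direction differed between the scales at 2 of the 25 sites. Depth is not divided out in full on the fold enrichment scale, and its part in these differences was not tested.

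For the AP-1 proteins the median ratio at kept sites was 1.12 for FOS, 1.29 for JUN and 1.08 for JUNB, beside 0.949, 1.29 and 0.964 over all kept sites. FOS was at least 2-fold higher at 8 of 67 sites, or 11.9%, beside 8.54%, and at least 2-fold lower at 1, beside 5.99%. JUN was at least 2-fold higher at 7 of 63 sites, or 11.1%, beside 14.8%, and lower at 1, beside 0.807%. JUNB was at least 2-fold higher at 2 of 38 sites, or 5.26%, beside 7.74%, and lower at 0, beside 7.02%. On the fold enrichment scale JUNB was at least 2-fold higher at 7 sites, beside 16.8%, and lower at 0, beside 1.29%. JUNB ratios above 1 then numbered 32 in place of 23. Over the genome they numbered 39399 in place of 25491 of 55046. The JUNB library of transformed cells had 1.72 times the reads, and this scale does not divide out depth in full. Most AP-1 ratios were within counting error. The interval lay above 1 at 11 FOS, 6 JUN and 2 JUNB sites and below 1 at 3 FOS sites, again without a genome share. The smallest ratio of JUN, 15 and 8 reads at chr11:102217403-102218085 in BIRC3, and that of JUNB, 20 and 22 reads at chr5:150452246-150452609 in TNIP1, had intervals that held 1.

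Finally, the NFKB1 peaks of the loci were compared with those of the other factors in the same state. An AP-1 peak, of FOS, JUN or JUNB, overlapped 24 of the 29 NFKB1 peaks in non-transformed and 76 of the 91 in transformed cells, or 82.8% and 83.5%, beside 86.0% and 86.1% over the genome. STAT3 overlapped 18 and 59, or 62.1% and 64.8%, beside 61.0% and 62.1%. Neither was listed at 3 and 13 NFKB1 peaks, or 10.34% and 14.29%, beside 12.65% and 12.49% over the genome. The 13 peaks of transformed cells were 4 each in TNFAIP3 and NFKBIZ, 3 in TNIP1 and 2 in NFKBIA. These pooled shares were near those of the genome, but single AP-1 proteins were less so in non-transformed cells, where FOS overlapped 65.5% of the NFKB1 peaks beside 79.6% over the genome, JUNB 51.7% beside 60.6% and JUN 72.4% beside 74.6%. In transformed cells FOS overlapped 72.5% beside 79.5%, JUNB 59.3% beside 65.8% and JUN 73.6% beside 77.2%. In transformed cells the median distance from an NFKB1 summit to the summit of the partner was 28.5 bp for FOS, 30 bp for JUN, 19.5 bp for JUNB and 26 bp for STAT3, beside 27, 27, 27 and 31 bp over the genome.

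The NFKB1 ratio at kept sites was set beside the AP-1 signal. Across the 25 sites the Spearman correlation of the NFKB1 log2 ratio with the summed FOS, JUN and JUNB signal of transformed cells was 0.45, beside 0.37 over the 11725 kept sites of the genome. With STAT3 of transformed cells it was 0.15, beside 0.35. AP-1 summed to a median of 5.05 RPM (1.19 to 10.9) at the 14 sites where NFKB1 was higher and to 2.28 (0 to 8.19) at the 11 where it was lower, so the ranges overlapped widely. The site with the largest NFKB1 ratio, chr5:150473612-150474012, had 2.06 RPM of AP-1, and chr14:35843566-35843904, with 8.19 RPM, had an NFKB1 ratio of 0.800. The sites share the same libraries, and neighbouring sites may share DNA fragments, so they are not independent. The ratio was also related to the NFKB1 value before transformation, with a correlation of −0.65 beside −0.23 over the genome, but that value is part of the ratio.

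**Figure D5:**
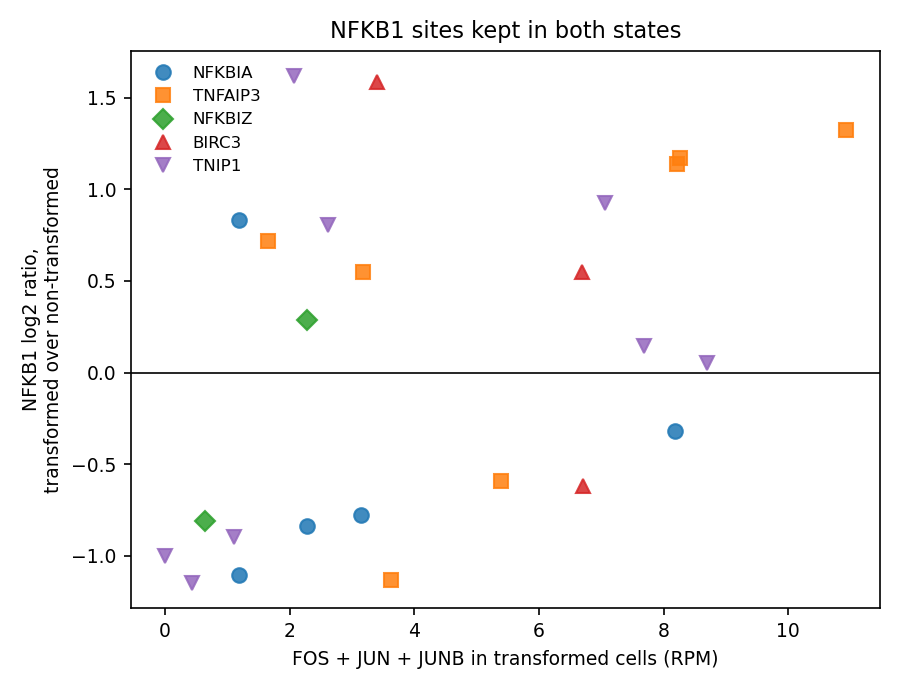
Log2 ratio of NFKB1, transformed over non-transformed (vertical axis), against the summed FOS, JUN and JUNB signal in transformed cells in RPM (horizontal axis) at the 25 NFKB1 sites kept in both states, with a symbol for each locus. The 3 TNFAIP3 sites with the most AP-1 lie above 1 on the log2 scale, sites with ratios above and below 0 occur over most of the AP-1 range, and NFKBIA has 4 of its 5 sites below 0.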

How the data were processed

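Binding of 5 factors in 2 states was analysed from 10 deposited ChIP-seq peak lists, 1 per library, and samples were grouped by their labels. Per the labels, reads were aligned with Bowtie to hg19 and peaks called with MACS2. The file headers give MACS 2.0.10.20131216, run by the authors on each library alone, without a control library, with reads of 36 bp, 1 read kept per position, a local background over 1000000 bp, a genome size of 2700000000 bp and a q-value cutoff of 0.05. In the deposited lists the pileup is a signal, the extended reads over the summit, not scaled by depth. Fold enrichment, as deposited, is the ratio of pileup plus 1 to local background plus 1. The deposited significance is −log10 of the p-value and q-value. Filtered depth was 4837474 to 22082403 reads per library, and the lists held 13252 to 164605 peaks.

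Pileups were divided by filtered reads and given per 1000000 (RPM). Summits with 150 bp on each side were merged into sites when they overlapped by at least 1 bp, and a site took the highest peak of each list. Ratios of pileups have exact conditional binomial 95% intervals, which cover counting error only and take the depth as known. They do not cover the choice of a site by its values. Site merging, state calls and intervals were tested on simulated data. No p-values were computed. Promoter sequences came from RefSeq by symbol and were searched for an NF-κB consensus, TGANTCA and TTCNNNGAA on both strands. The reference annotation and genome are GRCh38, so sites were not annotated and no sequence was read at a peak.

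Named sites were, per locus, the 3 with the largest mean over the 10 libraries and that with the most NFKB1 in each state, and, for each factor, the kept sites with the largest and smallest ratio, 22 in all. The loci and these rules were chosen with earlier results of these data known. Alternatives were a stricter q-value threshold, a minimum of 2 RPM, merging of summits within 150 bp, windows of 50 bp, whole peaks, fold enrichment, centring on all kept sites, other rankings and longer promoters. Python 3.11.15, numpy 2.4.6, pandas 2.3.3, scipy 1.17.1 and matplotlib 3.10.9 were used.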

Additional observations from a re-analysis of the deposited data

How the results depend on the processing

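Requiring a −log10 q-value of 9.41, the median of all listed peaks, left FOS with 44 and 71, JUN with 22 and 52, JUNB with 18 and 44, NFKB1 with 19 and 47 and STAT3 with 17 and 46 peaks in the loci, in non-transformed and transformed cells. A minimum of 2 RPM left FOS with 18 and 18, JUN with 2 and 8, JUNB with 8 and 14, STAT3 with 9 and 29 and NFKB1 with 20 and 31 peaks. The number stayed higher in transformed cells in each case, except for FOS with the minimum of 2 RPM. The stricter q-value limit left 100 sites, 19 with all 5 factors in transformed cells and 1 of those with none before, and 63.2% of NFKB1 peaks with AP-1 in non-transformed cells. The gained share of JUN was 64.7% under the stricter limit, and with at least 2 RPM it was 75.0% for JUN, 72.4% for STAT3 and 41.9% for NFKB1. Centring on all kept sites gave median log2 ratios of 0 for JUN and 0.13 for STAT3, and fold enrichment gave 0.45 for JUNB. The cause of these shifts was not tested beyond the smaller lists. Of the 96 alternative values that answer a comparison, 66 stayed within their limits, among them the NF-κB matches with the bases after the start included. A change of sign was possible only for the median log2 ratios, and none was seen. Limits of these medians were wide: the NFKB1 move from 0.15 to 0.78 with fold enrichment stayed within them. Among 310 alternative values for single loci, kept, gained or lost counts and ranks, 186 moved, and the rank share of the strongest peak of a locus changed by 0.503 to 2.70 times when ranked by fold enrichment.

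The counts of 2-fold calls on fold enrichment and the lost shares with 50 bp windows were added after seeing the data and are not among these values. No paired analysis was possible because each factor and state has 1 library. Leaving out a library was not possible either, and the gene annotation was not run for want of the hg19 build. The NFKB1 library of non-transformed cells is the shallowest, and no NFKB1 peak under 1.24 RPM was listed in the loci there.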
